A study of Mus musculus with 10 samples.

Results

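Glutathione is the main small thiol of the cell, and 10 genes that make it, keep it reduced, spend it on peroxides or break it down were followed in mouse gastrocnemius muscle. Gsr was chosen by its values in these libraries, because the mice of both genotypes did not overlap in it, and the other 9 genes were taken as its pathway partners (Gclc, Gclm, Gss, Gpx1, Gpx3, Gpx4, Glrx, Ggct and Slc7a11). All 10 were found among the 49315 gene identifiers of the count table, and 9 of them were among the 14714 genes with enough counts to be tested. The libraries came from 5 AHRfl and 5 AHRmko mice of the C57BL6J strain, all male. Both genotypes carry floxed alleles of Ahr, the gene of the aryl hydrocarbon receptor, a transcription factor activated by compounds of tobacco smoke. AHRmko mice also carry HSA-MCM, a tamoxifen-activated Cre driven by the human ACTA1 promoter, which is active in skeletal myofibres, so that Ahr is left intact in the other cells of the muscle. AHRfl mice are littermates without Cre. Every mouse breathed cigarette smoke for 16 weeks, in 2 daily sessions of 1 h on 5 days per week at 220 ± 80 mg/m3, starting 4 weeks after tamoxifen according to the labels (a shorter interval stands in the main methods of the study), and muscle was taken 72 h after the last exposure according to the series' design text, or within a range of hours ending at 72 h according to another passage of the study. No library of an air-exposed mouse was analysed here, and the sources used here call these mice aged without giving a number.

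In the pathway, cystine enters the cell through the transporter Slc7a11 and is reduced to cysteine. Glutamate-cysteine ligase, made of a catalytic subunit (Gclc) and a modifier subunit (Gclm), joins glutamate and cysteine, and glutathione synthetase (Gss) adds glycine. Glutathione peroxidases use the tripeptide to reduce hydrogen peroxide (Gpx1 in the cell, Gpx3 in plasma and the extracellular space) and lipid hydroperoxides in membranes (Gpx4), and glutaredoxin (Glrx) uses it to free proteins of mixed disulfides. Glutathione reductase (Gsr) returns the oxidized form to the reduced one with NADPH, and gamma-glutamylcyclotransferase (Ggct) acts on gamma-glutamyl amino acids during turnover. The transcription factor NRF2 (Nfe2l2) is a known activator of several of these genes.

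The 3 peroxidases of the set are selenoproteins, and they are the only 3 of the 10 genes with a selenocysteine in the annotation. Their shared feature is a UGA codon that is read as selenocysteine in place of a stop. The stretch of coding sequence around it, 30 bases on either side, is shown because it is the catalytic part the 3 genes have in common, with the codon in capitals (GENCODE M21 on GRCm38, plus strand in all). The codon lies at chr9:108339451-108339453 in Gpx1, chr11:54907256-54907258 in Gpx3 and chr10:80054737-80054739 in Gpx4.
Gpx1: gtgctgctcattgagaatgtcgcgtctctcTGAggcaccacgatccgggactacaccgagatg
Gpx3: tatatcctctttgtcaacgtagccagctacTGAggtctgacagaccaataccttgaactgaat
Gpx4: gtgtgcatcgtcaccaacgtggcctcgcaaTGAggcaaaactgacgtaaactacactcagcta
Aligned on the codon without gaps, Gpx1 and Gpx4 were identical at 35 of 63 bases (55.6%), Gpx3 and Gpx4 at 29 (46%), and Gpx1 and Gpx3 at 27 (42.9%).

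Some facts of the libraries bear on every gene. Total counts per mouse ran from 30393035 to 36500548 in AHRfl (median 34513601) and from 35038167 to 37954388 in AHRmko muscle (median 36622623), and no pair of the 10 libraries held the same counts. Ahr itself had 43 to 110 counts in AHRfl and 31 to 80 in AHRmko mice, which overlap (log2 fold change -0.35, adjusted p = 0.844 in the quasi-likelihood F test of edgeR, with p-values adjusted over all genes by the Benjamini-Hochberg method). These counts sum the reads of all its exons, of which the floxed exon is a small part, and they do not measure the deletion. Markers of myofibres were high in every mouse, at a summed 147612 to 200238 CPM (a gene's counts relative to the TMM-normalized library size) in AHRfl and 165933 to 203083 CPM in AHRmko muscle, with all 8 tested and 0 called. Of these 8 markers, 7 had a higher mean in AHRmko muscle (median log2 fold change 0.07). Slow-fibre markers differed most from mouse to mouse, from a summed 65.8 to 1754 CPM in AHRfl and from 226 to 2112 CPM in AHRmko muscle. All 7 slow-fibre markers had a higher mean in AHRmko muscle and 0 of 7 were called. Of all genes tested, 1 had an adjusted p under 0.05 (0.0068%), 972 had an unadjusted p under 0.05 (6.61%), and the 5 and 5 mice did not overlap in 206 (1.4%). Summed markers of erythroid cells, adipocytes, macrophages, fibroblasts and Schwann cells overlapped between the genotypes, and 0 of their genes were called. In mean, 5 of 6 erythroid markers were higher (median log2 fold change 0.46, summed 105 to 322 CPM in AHRfl and 143 to 483 CPM in AHRmko muscle) and 5 of 5 Schwann markers lower (median -0.32, summed 42.1 to 85.7 and 20.2 to 77.9 CPM). Of adipocyte markers 4 of 6, of macrophage markers 5 of 7 and of fibroblast markers 1 of 6 were higher in mean. The labels number the animals, and each was taken as 1 replicate.

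Measured per length, the peroxidases were by far the most abundant transcripts of the set. On the RPKM scale (CPM per kilobase of the union of exons), Gpx4 had a level of 142 ± 12.8 (SD, n = 10 mice), above 98.2% of the tested genes. Gpx3 followed at 75.5 ± 17.1 and Gpx1 at 41.2 ± 3.50 RPKM. Gsr had a level of 8.998 ± 1.29 RPKM, 4.58 times below Gpx1, and was the most abundant gene of the set outside the peroxidases. The synthesis genes were lower still, with Gclc at 3.73 ± 0.559, Gclm at 2.48 ± 0.327 and Gss at 1.80 ± 0.264 RPKM. Glrx was at 2.49 ± 0.201 and Ggct at 1.07 ± 0.0707 RPKM. Most neighbours in this order were apart in every mouse. The exceptions were Glrx and Gclm, which kept their order in 6 of 10 mice, and Gclm and Gss, whose ranges overlapped over the 10 mice although Gclm was above Gss in each of the 10. With the length of the longest transcript in place of the union of exons, 7 of the 10 genes kept their place, and the places of Glrx, Gclm and Gss changed. In bulk muscle RNA, fewer cells of a type and less RNA per cell cannot be told apart.

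**Figure D1:**
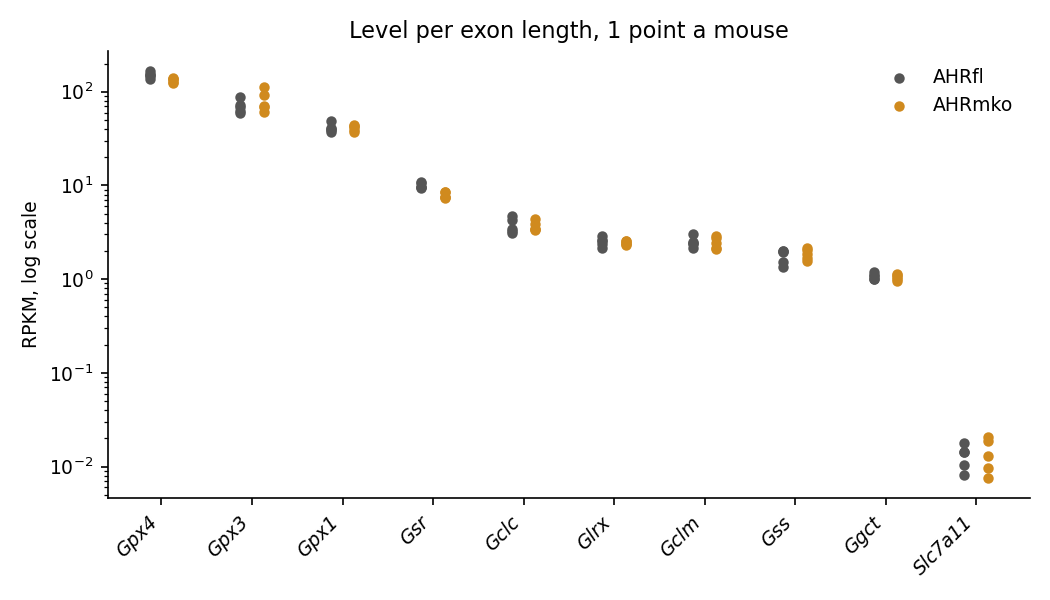
Level per exon length (RPKM, log axis) of the 10 glutathione genes in each mouse, AHRfl in grey and AHRmko in orange, 5 mice each. Gpx4, Gpx3 and Gpx1 lie highest, and Slc7a11 lies 79.2 times below Ggct, the next gene above it.

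Slc7a11, the cystine transporter (ENSMUSG00000027737, chr3:49892526-50443614, minus strand), was near the limit of detection. It had 7, 5, 4, 7 and 8 counts in the AHRfl mice 11, 12, 13, 15 and 33, and 4, 5, 10, 10 and 6 counts in the AHRmko mice 8, 9, 19, 22 and 34. This is 0.181 ± 0.0527 CPM in AHRfl and 0.194 ± 0.0785 CPM in AHRmko muscle (SD, n = 5 each), where 3 counts correspond to 0.0787 to 0.0926 CPM on the same scale. The ranges overlapped (p = 0.865 in an exact two-sided permutation test), and a difference between genotypes was not detectable at this depth. No molecular identifiers are named in the sources used here, and this limit covers counting error only.

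The comparison of the genotypes asks how the muscle of smoke-exposed mice differs when its fibres lack the receptor. In this comparison Gsr was lower in AHRmko muscle, the pattern it was chosen by, and the other pathway genes showed no called difference. Apart from Gsr, 8 members were tested, of which 2 had a higher and 6 a lower mean in AHRmko muscle, and 0 had an adjusted p under 0.05 (0.0068% of all genes tested) in edgeR after Benjamini-Hochberg adjustment. An unadjusted p under 0.05 was found for 1 of the 8 (Gpx4), where 6.61% of all genes had one. The median log2 fold change of the 8 was -0.02, and that of all 14714 genes was 0.01. This count has no stable direction, with 5 higher and 3 lower (median 0.03) under the slow-fibre covariate or when AHRmko mouse 9 was left out (median 0.013), and 4 and 4 without AHRfl mouse 12 (median 0.028). None of the 8 had groups that did not overlap, where 1.4% of all genes tested had such groups.

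Gsr (ENSMUSG00000031584, chr8:33652523-33698163, plus strand), the reductase, had 729 to 1063 counts per mouse. It was at 30.2, 29.1, 26.6, 26.1 and 26.8 CPM in the AHRfl mice 11, 12, 13, 15 and 33, and at 20.9, 23.6, 20.8, 20.01 and 23.6 CPM in the AHRmko mice 8, 9, 19, 22 and 34. The lowest AHRfl mouse was 15 and the highest AHRmko mouse was 9, and all AHRmko mice were below all AHRfl mice. Groups without overlap, counted whichever genotype was higher, were found in 1.4% of all genes tested. The means were 27.8 ± 1.78 and 21.8 ± 1.68 CPM (SD, n = 5 each), a log2 fold change of -0.35 or a change of -21.6%. Because Gsr was selected on this difference, no test of it is given. The highest mouse had 1.16 times the level of the lowest in AHRfl and 1.18 times in AHRmko muscle, a small spread that the choice of the gene also favours. No other member met the rule that chose Gsr, and in Gpx4, the member with the next lowest log2 fold change, the lowest AHRfl mouse (234 CPM) lay under the highest AHRmko mouse (241 CPM). The log2 fold change of Gsr was -0.32 with a score of the slow-fibre markers as a covariate.

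The synthesis genes had nearly equal means in both genotypes and differed more from mouse to mouse. Gclc (ENSMUSG00000032350, chr9:77754535-77794485, plus strand), the catalytic subunit, was at 16.0, 18.0, 12.9, 11.7 and 12.4 CPM in the AHRfl mice, named in the same order as above, and at 14.6, 12.7, 12.96, 12.9 and 16.5 CPM in the AHRmko mice. The AHRfl mice spanned the AHRmko mice on both sides, and mouse 12 was the highest of all. The means were 14.2 ± 2.71 and 13.9 ± 1.61 CPM (SD, n = 5 each), with a log2 fold change of -0.03 (95% interval -0.29 to 0.24, BH-adjusted p = 0.985 in edgeR). Its partner Gclm (ENSMUSG00000028124, chr3:122245557-122270732, plus strand) was at 15.8, 18.9, 15.3, 13.4 and 14.8 CPM in AHRfl and at 13.1, 13.5, 17.5, 15.4 and 18.3 CPM in AHRmko muscle. Mouse 12 was again the highest of the AHRfl group, and mouse 34 the highest of the AHRmko group in both subunits. The log2 fold change of Gclm was -0.01 (95% interval -0.25 to 0.23, BH-adjusted p = 0.994 in edgeR). Gss (ENSMUSG00000027610, chr2:155563181-155592810, minus strand), which completes the tripeptide, was at 8.96, 7.93, 11.7, 11.9 and 11.4 CPM in AHRfl and at 10.9, 12.02, 9.85, 12.6 and 9.18 CPM in AHRmko muscle. Here mouse 12 was the lowest of all and mouse 34 the lowest of its group. The log2 fold change of Gss was 0.07 (95% interval -0.20 to 0.35, BH-adjusted p = 0.952 in edgeR). In all 3 genes leaving out mouse 12 turned the sign of the difference, to 0.074 in Gclc, 0.066 in Gclm and -0.0091 in Gss, so that no direction can be given. Gss shares 6.68% of its exon bases with Acss2, and 5.44% and 6.51% with the antisense genes Gssos1 and Gssos2, all on the opposite strand, and Gclm shares 4.71% with Gm17494 on the opposite and 3.88% with Gm6061 on the same strand. The study's methods state counting by strand only for the case of a strand-specific library, without saying whether these libraries were, and the share of reads from these stretches was not tested.

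Among the peroxidases, Gpx4 had a lower mean in AHRmko muscle, with a difference that was not past the threshold over all genes. Gpx4 (ENSMUSG00000075706, chr10:80047166-80056439, plus strand), with 7568 to 9921 counts per mouse the most deeply counted of the set, was at 258, 286, 265, 252.4 and 234 CPM in the AHRfl mice and at 211, 219, 241, 237 and 238 CPM in the AHRmko mice. Mouse 33 was the lowest of the AHRfl group and lay under 3 of the AHRmko mice, and the other 4 AHRfl mice were above all AHRmko mice. The means were 259 ± 19.04 and 229 ± 13.3 CPM (SD, n = 5 each), a change of -11.5%, with a log2 fold change of -0.18 (95% interval -0.32 to -0.03). The difference had an unadjusted p of 0.0238 and an adjusted p of 0.683 in edgeR, and an exact two-sided permutation over all divisions of the mice gave p = 0.0317. The unadjusted p was over 0.05 without AHRfl mouse 12 (0.0567), AHRmko mouse 8 (0.0575) or AHRmko mouse 9 (0.0553), with log2 fold changes of -0.21 to -0.14 over all mice left out in turn. A transcribed pseudogene, Gpx4-ps2, is annotated, and how its reads were assigned was not tested.

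Gpx1 (ENSMUSG00000063856, chr9:108338903-108340343, plus strand), the cytosolic peroxidase, was at 58.5, 70.1, 56.7, 57.8 and 53.7 CPM in the AHRfl mice and at 53.6, 56.3, 62.9, 60.9 and 62.8 CPM in the AHRmko mice. Mouse 12 was the highest of all and the groups overlapped, with means of 59.4 ± 6.30 and 59.3 ± 4.18 CPM (SD, n = 5 each). The 95% interval of its log2 fold change ran from -0.17 to 0.17 (BH-adjusted p = 0.999 in edgeR). Gpx3 (ENSMUSG00000018339, chr11:54902453-54910377, plus strand), the secreted peroxidase, had the highest fitted coefficient of variation of the 9 tested genes, at 112, 131, 109, 160 and 125 CPM in the AHRfl mice and 204, 109, 127, 168 and 123 CPM in the AHRmko mice. In AHRfl muscle alone the CV of its CPM was 16.1%, under those of Gclc (19.1%) and Gss (17.4%), and in AHRmko muscle it was 26.7%. Its highest AHRmko mouse, number 8, had 1.87 times the level of the lowest, number 9. The log2 fold change of Gpx3 was 0.20 (95% interval -0.18 to 0.58, BH-adjusted p = 0.873 in edgeR), and 0.05 without AHRmko mouse 8. Mouse 8 also had the highest summed slow-fibre markers, 2112 CPM, and their part in the value of Gpx3 was not tested beyond the fit with the slow-fibre score, in which the log2 fold change was 0.07.

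The remaining members were the glutaredoxin and the cyclotransferase. Glrx (ENSMUSG00000021591, chr13:75839868-75850154, plus strand) ran from 11.8 to 15.9 CPM in AHRfl and from 12.8 to 14.2 CPM in AHRmko muscle, with a log2 fold change of -0.04 (95% interval -0.22 to 0.14, BH-adjusted p = 0.960 in edgeR). Ggct (ENSMUSG00000002797, chr6:54982580-54992950, minus strand) ran from 7.70 to 9.18 CPM in AHRfl and from 7.48 to 8.78 CPM in AHRmko muscle, with a log2 fold change of -0.03 (95% interval -0.22 to 0.15, BH-adjusted p = 0.967 in edgeR). In both genes the groups overlapped almost entirely. The biological coefficient of variation estimated by the fit was 10.6% for Gpx4, 10.7% for Glrx, 10.8% for Ggct and 19.7% for Gpx3, where the median of all genes was 15.1%.

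**Figure D2:**
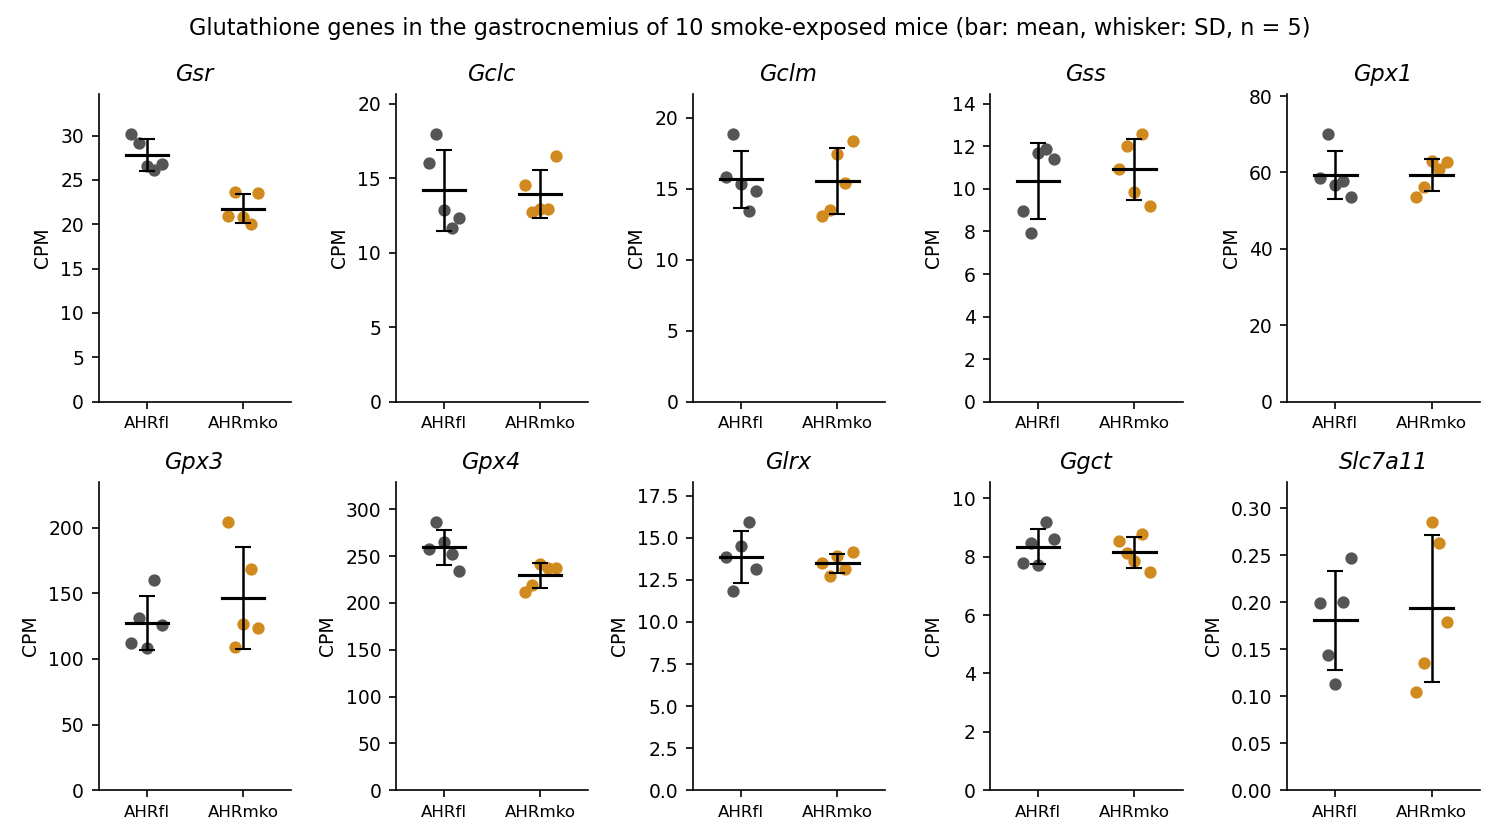
CPM of the 10 glutathione genes in each of the 5 AHRfl (grey) and 5 AHRmko (orange) mice, with the mean (bar) and SD (whisker) and each axis starting at 0. Gsr, chosen by this pattern, is the only one of the 10 whose groups do not overlap.

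**Figure D3:**
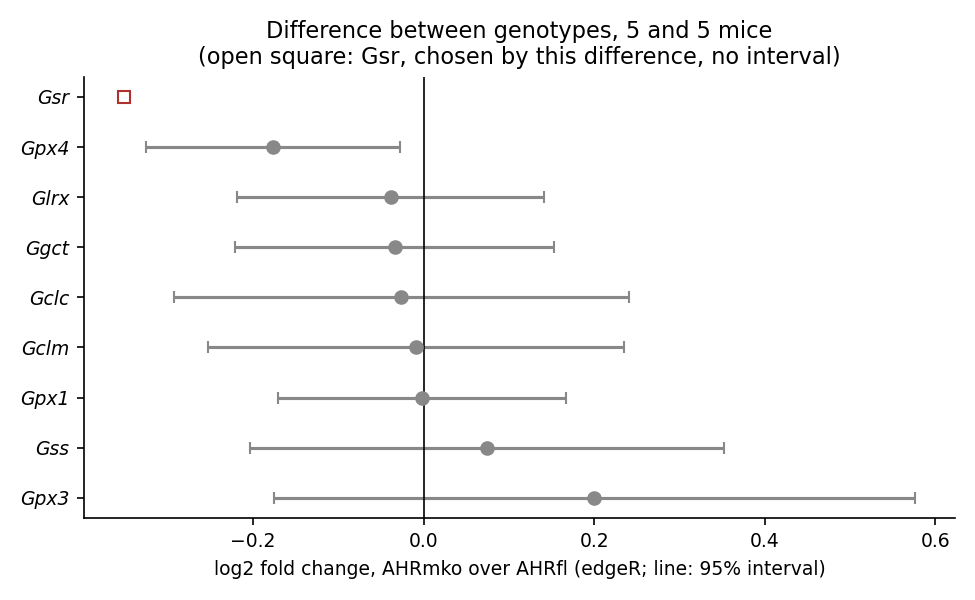
Log2 fold change (AHRmko over AHRfl) of the 9 tested members from edgeR, with the 95% interval of the 8 not chosen by this contrast, and Gsr as an open square without one. The interval of Gpx4 (-0.32 to -0.03) lies below 0, and the other 7 intervals span it.

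Inside the genotypes, members varied together or against each other. The choice of the pathway partners did not use this variation, and that of Gsr favoured a small spread inside each group. Over all 36 pairs the median r was -0.16 and 15 were positive. Gsr, Gclc, Gclm, Gpx1 and Gpx4 had positive r with each other and negative r with Gss, Gpx3, Glrx and Ggct. The latter genes had positive r with each other, except Glrx with Ggct (-0.04). Scaled by library size only, 4 of the 36 values changed sign. These were Glrx with Ggct (0.35) and Gsr with Gclm (-0.05), Gpx1 (-0.13) and Gpx4 (-0.44). With TMM scaling, the rho of Gsr was -0.05 with Gpx1 and -0.12 with Gpx4. For each gene the genotype mean of log2 CPM was subtracted, and the deviations of the 10 mice were compared. These correlations are given as a description, since all 10 points share the library scaling and, within a mouse, the mix of cells. Gpx1 and Gpx4, the cytosolic and the membrane-protecting peroxidase, had r = 0.92 (rho 0.95, and r = 0.88 without the 2 mice farthest out in Gpx1). Gclm went with both, at r = 0.85 with Gpx1 (rho 0.89) and r = 0.81 with Gpx4 (rho 0.87). With each mouse left out in turn, r stayed between 0.90 and 0.98 for Gpx1 with Gpx4, between 0.80 and 0.90 for Gclm with Gpx1, and between 0.72 and 0.92 for Gclm with Gpx4. Gss ran against the ligase subunits that precede it in the pathway, at r = -0.90 with Gclc (rho -0.83, and -0.75 without the 2 mice farthest out) and r = -0.78 with Gclm (rho -0.64, and -0.50 without them). Gpx3 varied with Ggct (r = 0.78, rho 0.82) and not with the other peroxidases (r = -0.16 with Gpx1 and -0.24 with Gpx4). Gsr went most closely with Gclc (r = 0.65, rho 0.42, and 0.49 when scaled by library size only) and had r = -0.61 with Gss, -0.61 with Gpx3 and -0.57 with Ggct. Scaled by library size only, these 3 values were -0.20, -0.29 and -0.09. Without the 2 mice farthest out in Gsr, r was 0.85 with Gclc, -0.83 with Gss, -0.43 with Gpx3 and -0.55 with Ggct. The ligase subunits Gclc and Gclm had r = 0.66 (rho 0.71), and 0.47 to 0.81 with each mouse left out in turn. This r depended on the 2 mice farthest out in Gclc, without which it was 0.17.

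**Figure D4:**
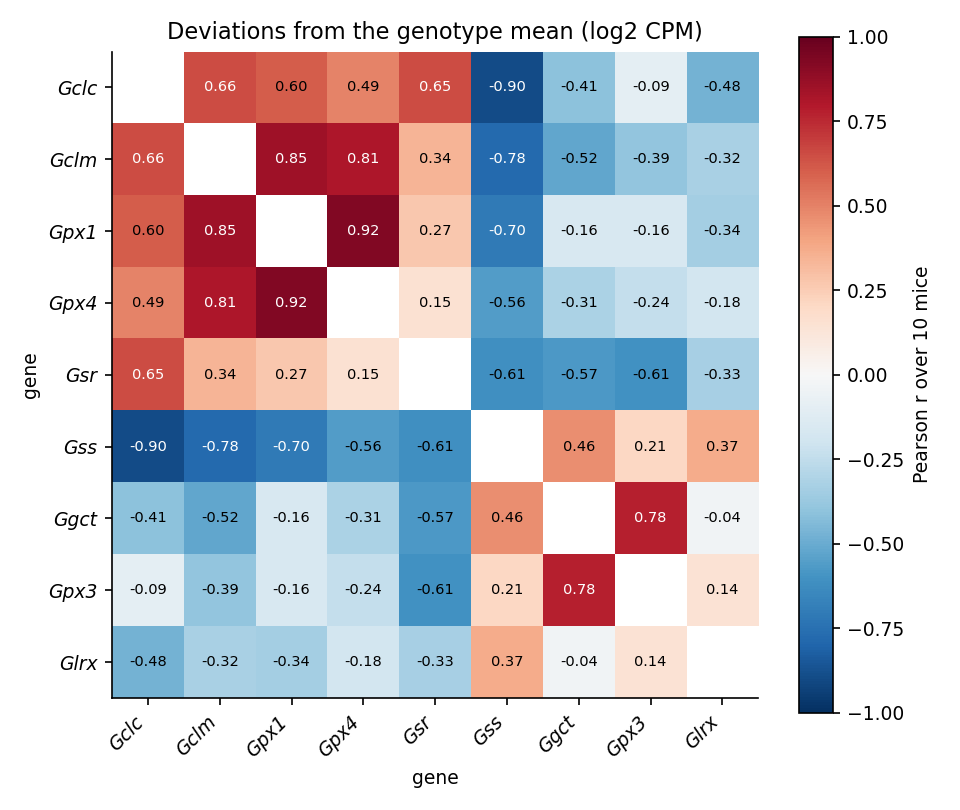
Pearson r over 10 mice between the deviations of log2 CPM from the genotype mean, for each pair of the 9 tested members (red positive, blue negative). Gclm, Gpx1 and Gpx4 form a positive group with r of 0.81 to 0.92, Gss is negative with each of them, and Gpx3 and Ggct are paired at 0.78.

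Some mice were at the ends of several genes. AHRfl mouse 12 was the highest of its group in Gclc, Gclm, Gpx1 and Gpx4 and the lowest in Gss and Glrx, and it had the lowest summed slow-fibre markers of all 10 mice. AHRfl mouse 15, with a summed 1754 CPM of slow-fibre markers, was the lowest of its group in Gsr, Gclc and Gclm and the highest in Gss, Gpx3, Glrx and Ggct. Across the 10 mice, deviations of the slow-fibre sum had r = -0.75 with Gsr, -0.66 with Gclm, -0.64 with Gclc, -0.63 with Gpx1 and -0.63 with Gpx4, and r = 0.65 with Gss, 0.67 with Ggct, 0.72 with Gpx3 and 0.49 with Glrx. The erythroid sum had r = -0.68 with Gsr, the fibroblast sum -0.48, the macrophage sum -0.39 and the myofibre sum 0.43. With the Schwann, endothelial and adipocyte sums Gsr had r = 0.16, -0.07 and -0.05. The sum of myofibre markers had r = 0.89 with Gpx4, 0.84 with Gpx1 and 0.77 with Gclm. That of endothelial markers had r = -0.91 with Gclm, -0.89 with Gpx4 and -0.84 with Gpx1, and the adipocyte sum had -0.67 with Gclm. Summed endothelial markers were at 138 to 203 CPM in AHRfl and 149 to 260 CPM in AHRmko muscle, with 6 of 6 higher in mean and 0 called. Summed fibroblast markers, at 298 to 564 CPM in AHRfl and 293 to 590 CPM in AHRmko muscle, had r = 0.81 with Ggct and 0.70 with Gpx3. The part of these marker levels in the shared variation was not tested. The deviations of Nfe2l2, the gene of NRF2, had r = 0.83 with those of Gclm, 0.75 with Gclc, 0.70 with Gpx1, 0.61 with Gpx4, -0.70 with Gss and 0.25 with Gsr. With Gpx3, Ggct and Glrx they had r = -0.04, -0.29 and -0.38. For Gclm, r with the NRF2 targets Srxn1, Hmox1, Txnrd1 and Nqo1 was 0.89, 0.76, 0.74 and 0.48, and for Gsr it was 0.26, -0.06, 0.07 and -0.33. Over the same 4 targets r ran from 0.27 to 0.57 for Gclc, 0.56 to 0.68 for Gpx1 and 0.57 to 0.60 for Gpx4. It ran from -0.76 to -0.28 for Gss, -0.26 to 0.34 for Gpx3, -0.48 to -0.04 for Glrx and -0.50 to 0.15 for Ggct. These 4 are part of the 9 NRF2 targets listed, and the others were not compared. Srxn1 ran from 31.8 to 81.0 CPM in AHRfl and from 26.8 to 175 CPM in AHRmko muscle (median 42.1). The values with Nfe2l2 and its targets were not repeated with mice left out or with other scaling. The part of NRF2 in this variation was not tested.

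**Figure D5:**
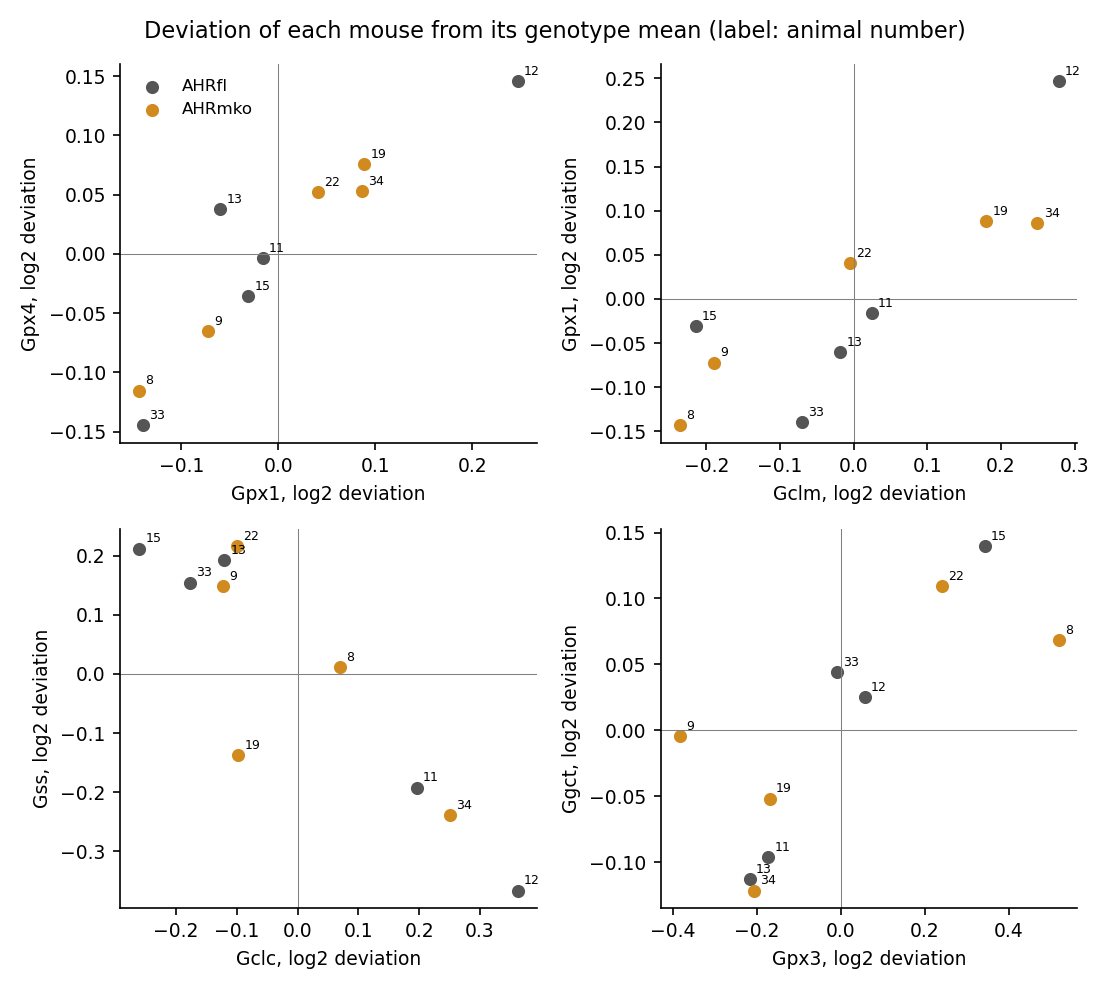
Deviation of each mouse from its genotype mean (log2 CPM) for 4 pairs of members, AHRfl in grey and AHRmko in orange, labelled by animal number. Gpx1 and Gpx4 rise along one line (r = 0.92), as do Gclm and Gpx1 (0.85), Gclc and Gss fall against each other (-0.90), and Gpx3 and Ggct scatter around a rise (0.78).

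Among 8799 genes with a mean of at least 5 CPM, those whose deviations were most like those of Gsr were Asb14 (r = 0.94), 4930429F24Rik (0.94), Adamts9 (0.94), Mapk9 (0.91) and Gm26740 (0.90), over 10 mice. They were picked as the highest of many correlations. Between genotypes, in which Gsr was lower, their log2 fold changes were -0.01, -0.05, -0.28, 0.10 and 0.06, and 0 of the 5 were called.

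The promoters of Gclm, Gpx1 and Gss are shown because the first pair varied together and Gss against them (RefSeq, GRCm38.p6, 250 bases before to 50 after the start site, 5′ to 3′ on the strand of the gene). RefSeq windows were matched for 8 of the 10 members, all but Gsr and Gclc, in 12 windows. Capitals mark the core of the antioxidant response element, the site of NRF2 with its small MAF partners (TGACNNNGC), and the core of the xenobiotic response element, the site of the aryl hydrocarbon receptor (GCGTG), each searched on both strands. The windows lie at chr3:122245307-122245606 (plus strand), chr9:108338830-108339129 (plus strand) and chr2:155592761-155593060 (minus strand).
Gclm: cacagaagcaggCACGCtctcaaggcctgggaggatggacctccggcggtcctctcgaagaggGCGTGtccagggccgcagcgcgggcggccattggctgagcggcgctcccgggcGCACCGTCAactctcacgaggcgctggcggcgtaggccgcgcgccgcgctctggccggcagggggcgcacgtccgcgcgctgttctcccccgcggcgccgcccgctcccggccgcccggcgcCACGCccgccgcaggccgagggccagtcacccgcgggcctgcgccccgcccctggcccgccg
Gpx1: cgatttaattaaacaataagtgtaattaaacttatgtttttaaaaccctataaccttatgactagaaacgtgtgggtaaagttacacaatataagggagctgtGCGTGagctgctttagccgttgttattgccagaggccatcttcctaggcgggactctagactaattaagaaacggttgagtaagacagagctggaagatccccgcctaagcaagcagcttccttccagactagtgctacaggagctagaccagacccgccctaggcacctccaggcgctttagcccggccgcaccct
Gss: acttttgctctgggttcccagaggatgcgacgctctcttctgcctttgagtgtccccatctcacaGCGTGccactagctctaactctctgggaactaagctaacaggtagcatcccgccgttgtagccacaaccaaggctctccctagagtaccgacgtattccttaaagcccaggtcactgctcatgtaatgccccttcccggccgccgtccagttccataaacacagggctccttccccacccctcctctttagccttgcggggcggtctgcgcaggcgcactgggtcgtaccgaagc
The antioxidant core, found in 12.4% of the 32851 promoter windows of the mouse, was in the windows of 2 members, once in Gclm (first letter at position -134 from the start site, read on the reverse strand) and at 2 positions in Ggct (-174 and 6). The xenobiotic core, found in 32.4% of windows, was in those of 5 members, at 3 positions in Gclm (-238, -187 and -12), at 1 in Gpx1 (-147), at 1 in Gss (-185), at 3 in Ggct, and in Gpx4. No match of the cores overlapped another in the 3 sequences shown. The 2 shares are per window and the members are counted per gene. Gpx4 and Glrx have more than 1 window, so that the counts are not like for like. These are matches of letters in a window and not measured sites.

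The wider pathway was read from 6 lists of genes, in which 0 genes were called in edgeR after Benjamini-Hochberg adjustment, and 6 of 78 tested had an unadjusted p under 0.05, where 6.61% of all genes had one. Of 20 other glutathione enzymes tested, 9 had a higher and 11 a lower mean in AHRmko muscle, and 2 had an unadjusted p under 0.05. The largest difference of these lists among the lower genes was in Glrx5 (chr12:105032688-105042906, plus strand), a mitochondrial glutaredoxin that serves iron-sulfur cluster assembly. Glrx5 ran from 71.6 to 85.9 CPM (median 80.9) in AHRfl and from 36.3 to 70.2 CPM (median 51.0) in AHRmko muscle. It was 1 of the 20 with groups that did not overlap, where 1.4% of all genes tested had such groups. Its means were 80.2 ± 5.83 and 51.8 ± 12.1 CPM (SD, n = 5 each), with a log2 fold change of -0.63 (95% interval -0.93 to -0.33), an unadjusted p of 0.000608 and an adjusted p of 0.606 in edgeR. The call depended on the tool and on 1 mouse, with an adjusted p of 0.0228 in the DESeq2 Wald test and of 0.0296 in edgeR without AHRmko mouse 34, and of 0.298 to 0.994 under the other settings. Chac2, which degrades glutathione, was at 12.4 ± 0.857 and 10.9 ± 0.844 CPM (SD, n = 5 each; log2 fold change -0.19, unadjusted p = 0.0362, adjusted p = 0.718 in edgeR). The highest log2 fold change among these enzymes was that of Ggt5, at 0.29 (adjusted p = 0.819 in edgeR). Ggt1, Gpx2, Gpx5 and Gpx6 were removed by the filter on low counts.

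Substrate supply, NADPH supply and selenoprotein synthesis held no called gene, and their counts of higher and lower means are set beside those of all genes tested, of which 7581 had a log2 fold change above 0 and 7133 (48.5%) below. Of 14 genes of substrate supply tested, 7 were higher and 7 lower in mean, from Slc7a5, a large neutral amino acid transporter (-0.16), to Slc1a4, a transporter of small neutral amino acids (0.38). Mat2a, which makes S-adenosylmethionine, was the only one of the 14 with an unadjusted p under 0.05, at 176 ± 24.1 and 206 ± 23.5 CPM (SD, 5 mice each). Its log2 fold change was 0.22 (unadjusted p = 0.0481, BH-adjusted p = 0.754 in edgeR). Of 17 genes listed for the supply of NADPH, on which Gsr runs, 9 were higher and 8 lower in mean, from Idh1 (-0.12) to Aldh1l2 (0.57), and 0 had an unadjusted p under 0.05. Of 9 genes for making or carrying selenoproteins, 6 were higher and 3 lower in mean, from Pstk, a kinase of the selenocysteine tRNA (-0.14), to Eefsec, its elongation factor (0.20), and 0 had an unadjusted p under 0.05.

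NRF2, its regulators and its targets outside the set held no called gene. Of 9 NRF2 regulators, 3 were higher and 6 lower in mean, from Maff (-0.46) to Nfe2l2 itself (0.14, 95% interval -0.59 to 0.87), and the related factor Nfe2l1 had an unadjusted p of 0.0390 (log2 fold change -0.21, adjusted p = 0.724 in edgeR). Of 9 NRF2 targets outside the set, 6 were higher and 3 lower in mean, up to Osgin1 at 0.62 (95% interval -0.25 to 1.49). Txnrd1, the cytosolic thioredoxin reductase and another selenoprotein, had a log2 fold change of 0.22 (unadjusted p = 0.0459, adjusted p = 0.744 in edgeR). Slc48a1, a haem transporter, ran from 48.7 to 54.9 CPM in AHRfl and from 41.8 to 47.5 CPM in AHRmko muscle without overlap (log2 fold change -0.16, unadjusted p = 0.0184, adjusted p = 0.665 in edgeR). Groups without overlap were found in 1 of these 9 targets and in 1.4% of all genes tested.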

How the data were processed

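RNA of the gastrocnemius of 10 male mice, 5 AHRfl and 5 AHRmko, was analysed. According to the study's methods and processing notes, the authors used Trimmomatic 0.36 on poly(A)-selected paired-end reads and STAR 2.5.2b for alignment to GRCm38, and the deposited table holds raw counts per gene of unique exonic reads, neither normalized nor pooled. The Ensembl release was not given in the sources used here, and counting by strand is stated only for the case of a strand-specific library. Symbols, positions and exon lengths came from GENCODE M21 (GRCm38), which held 49056 of 49315 identifiers. The genotypes were compared with edgeR 4.0.16 under R 4.3.3 (filterByExpr with minimum counts of 10 and 15 in total, TMM, robust quasi-likelihood test, Benjamini-Hochberg adjustment over 14714 genes, threshold 0.05). A prior count of 2 entered log2 CPM. BH-adjusted p-values are those of this fit. Exact permutation tests ran over all divisions into 5 and 5 mice (smallest p 0.00794). Alternatives were DESeq2 1.42.0, limma-voom (limma 3.58.1), other size factors, other filters, no robust estimation, a slow-fibre covariate, and leaving out each mouse. The steps were tested on simulated data. There edgeR called 20 of 67 genes given a log2 change of 0.5, 49 of 67 given 1, and 3 of 14514 unchanged genes. For DESeq2 these numbers were 25, 50 and 30. The members and gene lists were chosen with earlier results of these data known. Genes named outside the members were those with the lowest and highest log2 fold change in each list and any called; Chac2, Mat2a, Nfe2l1, Txnrd1 and Slc48a1 were named after their values were seen. The leave-one-out values of the correlations and of the lists' calls were also added after the data were seen.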

Additional observations from a re-analysis of the deposited data

How the results depend on the processing

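Of the 8 tested members other than Gsr, 0 were called in any of the 18 alternatives (Slc7a11 had an adjusted p only with no filter on low counts, and was not called), and the lowest adjusted p was 0.437 (Gpx4, library size only, edgeR). Gsr had values of -0.37 to -0.32 over the other settings and -0.38 to -0.32 with each mouse left out, a direction that its choice by groups without overlap fixed, so that they are no sign of stability. Gpx3 and Gpx4 kept their sign in all 18, and Gpx3 was at 0.05 without AHRmko mouse 8 and 0.30 without AHRfl mouse 15. The slow-fibre covariate turned the sign of Gclc (0.052), Gclm (0.053) and Gpx1 (0.036), and limma-voom and no filter on low counts that of Gpx1 (0.0015 and 0.00045). Leaving out each mouse gave -0.094 to 0.074 for Gclc, -0.075 to 0.066 for Gclm, -0.0091 to 0.13 for Gss, -0.036 to 0.065 for Gpx1, -0.091 to 0.017 for Glrx and -0.063 to 0.0027 for Ggct. The number of genes called among all was 1 in the main test, 21 with DESeq2, 5 with no filter, 2 with the slow-fibre covariate, and 1 to 6 with each mouse left out (6 without AHRmko mouse 34). Called genes of the 6 other lists numbered 0 in the main test, 1 with DESeq2 (Glrx5), and 0 to 1 with each mouse left out (Glrx5 without AHRmko mouse 34). The median r of the 36 member pairs was -0.16, between -0.24 (without AHRmko mouse 9) and -0.015 (without AHRfl mouse 12) with each mouse left out, and -0.11 with library size only. The causes were not tested. No paired analysis was possible because the animal numbers of the genotypes do not repeat and the labels give no litters. Slc7a11, at 4 to 10 counts, was the only member limited by depth.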
